A study of Mus musculus with 21 samples.

Results

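The respiratory chain passes electrons from reduced cofactors to oxygen and uses the energy to pump protons out of the mitochondrial matrix, and ATP synthase lets those protons back in to make ATP. Complex II takes electrons from succinate, complex III hands them from ubiquinol to cytochrome c, complex IV passes them from cytochrome c to oxygen, and complex V is ATP synthase. Most of the subunits are encoded in the nucleus and imported, while a few core subunits of complexes III, IV and V are encoded in the mitochondrial genome. MPTP is a toxin whose active metabolite is taken up by dopaminergic neurons and blocks complex I. Irisin, given here before or after MPTP or alone, is a peptide cleaved from the muscle membrane protein FNDC5.

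The genes described here are 62 nuclear genes whose symbols are Sdha, Sdhb, Sdhc, Sdhd, Cyc1 or Cycs, or begin with Uqcr, with Cox and a digit, or with Atp5, leaving out copies marked as pseudogenes by their symbol. By symbol, 59 of the 33829 genes listed for the pre-treatment experiment and 61 of the 55385 listed for the delayed experiment met this rule, and 58 met it in both. Atp5pb and Atp5md carried the older symbols Atp5f1 and Usmg5 in the pre-treatment table, and Atp5s carried the symbol Dmac2l in the delayed table, so the genes were followed by gene identifier. Of the 62 genes, 59 passed the filter on low counts in both experiments. The other 3 were Cox8c and a second Atp5o gene model, both listed for the delayed experiment alone and without a count in any of its 12 mice, and Cox20b, a processed pseudogene with 0 counts in 6 of 9 and 6 of 12 mice. Cox6c2 is also annotated as a processed pseudogene but was abundant enough to test.

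RNA was sequenced from hand-dissected nigral tissue, called midbrain in the sample labels, of 21 male C57BL/6 mice aged 6 weeks, in 7 groups of 3 mice, all injected intraperitoneally. In the pre-treatment experiment, control mice received ddH2O for 10 days, MPTP mice received ddH2O for 5 days and then MPTP at 30 mg/kg per day for 5 days, and the third group received irisin at 200 µg/kg per day for 5 days before the same course of MPTP. In the delayed experiment, control mice received ddH2O for 10 days, irisin mice received ddH2O for 5 days and then irisin for 5 days, MPTP mice received MPTP for 5 days and then ddH2O for 5 days, and the last group received MPTP for 5 days followed by irisin for 5 days, at the same doses. The interval between the last MPTP injection and dissection therefore differed between the experiments, and so did the gene tables, so that levels were compared within an experiment only. Each library is 1 mouse, so p-values set group differences against the spread between mice, estimated over all groups in the fit.

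Nuclear respiratory genes commonly have CpG-rich promoters with sites for nuclear respiratory factors such as NRF1 and GABP, an ETS-family factor also called NRF2. RefSeq promoter windows on GRCm38.p6, from 250 bases before to 50 bases after each annotated start, were matched by symbol to 45 of the 62 genes. The letters CCGGAAG, the GABP motif searched on both strands, occurred in the windows of 18 of these 45 genes, or 40% of them, against 9.93% of all 27025 genes with a window. The palindromic NRF1 consensus of 10 bases occurred in 4 of the 45 genes, or 8.89%, against 1.07% of all genes. The median number of CpG dinucleotides, in the most CpG-rich window of each gene, was 20 in the 45 genes and 8 over all genes. Both motifs contain CpG, and the part of CpG content in the motif shares was not tested. These shares describe letters in a fixed window, not binding. Windows are given for some of the genes whose counts come up repeatedly below. These are Cox8a, Sdhb and Atp5h, which hold the GABP motif, and Cox6b2, which holds neither the GABP nor the NRF1 motif. Cox11 and Atp5d also come up repeatedly, and their windows, not shown, hold neither motif. The GABP motif is in capitals, each sequence is written 5′ to 3′ on the strand of the gene, and the last 50 bases lie downstream of the start.
Cox8a, chr19:7217567-7217866, minus strand: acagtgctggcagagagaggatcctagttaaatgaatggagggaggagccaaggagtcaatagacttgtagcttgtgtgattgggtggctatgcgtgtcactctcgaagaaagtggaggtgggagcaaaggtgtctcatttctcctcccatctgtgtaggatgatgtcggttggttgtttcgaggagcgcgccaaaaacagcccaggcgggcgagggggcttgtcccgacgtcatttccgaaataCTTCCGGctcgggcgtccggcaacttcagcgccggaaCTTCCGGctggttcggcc
Sdhb, chr4:140961021-140961320, plus strand: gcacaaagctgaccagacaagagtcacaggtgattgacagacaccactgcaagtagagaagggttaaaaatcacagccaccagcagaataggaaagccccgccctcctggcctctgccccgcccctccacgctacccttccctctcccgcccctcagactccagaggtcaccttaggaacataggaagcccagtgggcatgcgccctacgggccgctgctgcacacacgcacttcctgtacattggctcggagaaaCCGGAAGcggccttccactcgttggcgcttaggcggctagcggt
Atp5h, chr11:115419870-115420169, minus strand: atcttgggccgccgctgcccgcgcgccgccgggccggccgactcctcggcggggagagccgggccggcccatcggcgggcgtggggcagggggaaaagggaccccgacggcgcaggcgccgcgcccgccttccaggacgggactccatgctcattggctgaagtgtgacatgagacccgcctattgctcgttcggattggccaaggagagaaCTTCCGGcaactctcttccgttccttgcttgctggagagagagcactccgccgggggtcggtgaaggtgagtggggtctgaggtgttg
Cox6b2, chr7:4753045-4753344, minus strand: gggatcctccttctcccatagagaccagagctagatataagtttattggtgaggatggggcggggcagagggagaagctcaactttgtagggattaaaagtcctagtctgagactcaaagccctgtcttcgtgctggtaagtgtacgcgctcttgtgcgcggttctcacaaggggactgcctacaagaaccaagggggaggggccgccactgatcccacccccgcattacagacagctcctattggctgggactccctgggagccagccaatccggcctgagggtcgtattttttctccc

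The libraries of the pre-treatment experiment held 66.7 to 75.6 M counted reads and those of the delayed experiment 48.8 to 77.2 M. Mitochondrially encoded genes took 10.6 to 12.9% and 7.65 to 9.50% of the counts. The 6 dopaminergic neuron markers, Th and Slc6a3 among them, were counted in every mouse, with summed levels of 173 to 457 CPM (counts scaled to a library of 1 M reads) across the pre-treatment mice. In the delayed experiment they summed to 281 to 323 CPM in controls, 252 to 284 in irisin mice, 147 to 232 in MPTP mice and 150 to 190 CPM in MPTP mice given irisin. Tissue from neighbouring structures varied between mice: the 5 choroid plexus markers summed to 1634 CPM in MPTP mouse 2 of the pre-treatment experiment against 10.3 to 27.0 CPM in the other 8 mice, while the delayed mice ranged from 38.8 to 1651 CPM. In bulk tissue such as this, fewer cells of a type and less RNA per cell cannot be told apart.

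The 59 genes that could be tested ran from 0.288 FPKM (Cox7b2) to 372 FPKM (Cox6b1) in the pre-treatment mice and from 0.427 FPKM (Cox7b2) to 332 FPKM (Atp5a1) in the delayed mice. Levels between genes are given as the deposited FPKM, which divides by gene length, as the mean over the 9 mice of the pre-treatment experiment and then over the 12 mice of the delayed experiment. In complex II, Sdha, the flavoprotein that oxidises succinate, stood at 127 and 149 FPKM, Sdhd and Sdhc, which anchor it in the membrane, at 55.8 and 77.9 and at 26.4 and 34.7 FPKM, and the iron-sulfur subunit Sdhb at 48.2 and 50.4 FPKM. In complex III the hinge protein Uqcrh was highest at 165 and 154 FPKM. It was followed by the small subunits Uqcr10 at 110.0 and 138 and Uqcrb at 114 and 94.7 FPKM, and by the core protein Uqcrc2 at 81.7 and 86.8 FPKM. The other core protein, Uqcrc1, stood at 52.9 and 67.9 FPKM. The Rieske iron-sulfur protein Uqcrfs1 stood at 63.8 and 80.7, cytochrome c1 (Cyc1) at 45.9 and 66.3, and the small subunits Uqcr11 and Uqcrq at 45.0 and 71.7 and at 31.5 and 42.7 FPKM. Somatic cytochrome c, Cycs, the mobile carrier between complexes III and IV, stood at 55.1 and 53.1 FPKM.

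Complex IV held abundant subunits as well as the lowest of the tested members. Its structural subunits Cox6b1, Cox6a1, Cox4i1 and Cox8a stood at 372 and 331, at 182 and 301, at 197 and 250.3 and at 157 and 271 FPKM. Cox7b stood at 146 and 126, Cox7c at 85.2 and 107, Cox7a2 at 95.3 and 92.5 and Cox5b at 83.4 and 90.3 FPKM. Cox7a2l, of the Cox7a family, stood at 74.6 and 86.6, Cox5a at 59.2 and 67.7, Cox6c at 38.2 and 43.2 and Cox6c2 at 14.2 and 11.7 FPKM. The assembly factors, which build the enzyme and are not part of it, were lower as a group. Cox14 stood at 35.1 and 17.1 FPKM, Cox20, a chaperone of newly made COX2, at 18.3 and 14.6 FPKM, and the copper-handling Cox19 and Cox17 at 6.25 and 5.94 and at 4.90 and 4.11 FPKM. The heme A enzymes Cox10 and Cox15 stood at 6.10 and 7.69 and at 5.19 and 6.63 FPKM, Cox11, which delivers copper to the CuB site, at 6.17 and 5.22, Cox16 at 4.09 and 3.34 and Cox18 at 2.64 and 2.30 FPKM.

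In ATP synthase the catalytic head subunits alpha (Atp5a1) and beta (Atp5b) were highest, at 239 and 332 and at 223 and 305 FPKM. The gamma, delta and epsilon subunits of the central stalk, Atp5c1, Atp5d and Atp5e, stood at 88.2 and 105, at 35.1 and 55.6 and at 25.0 and 27.2 FPKM. Among the membrane and peripheral stalk subunits, Atp5k, Atp5h and the expressed Atp5o model stood at 137 and 126, at 119 and 118 and at 99.8 and 115 FPKM. Atp5pb stood at 61.7 and 65.5, Atp5mpl at 48.1 and 54.2, Atp5md at 48.0 and 36.1, Atp5j at 37.3 and 34.6, Atp5j2 at 27.2 and 33.0 and Atp5l at 15.3 and 14.4 FPKM. Atp5s, the coupling factor B-like protein, stood at 8.48 and 6.67 FPKM. The lengths that the deposited FPKM values imply were long for some of these small proteins, at 7.26 kb for Atp5l, 6.51 kb for Cox17 and 5.54 kb for Atp5g1 in the pre-treatment table, against 0.798 kb for Cox6b1, so their FPKM depends on gene models with long exons. The length implied for Cox14 differed between the tables, at 0.815 kb and 2.62 kb, so its FPKM values are on unequal lengths.

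**Figure D1:**
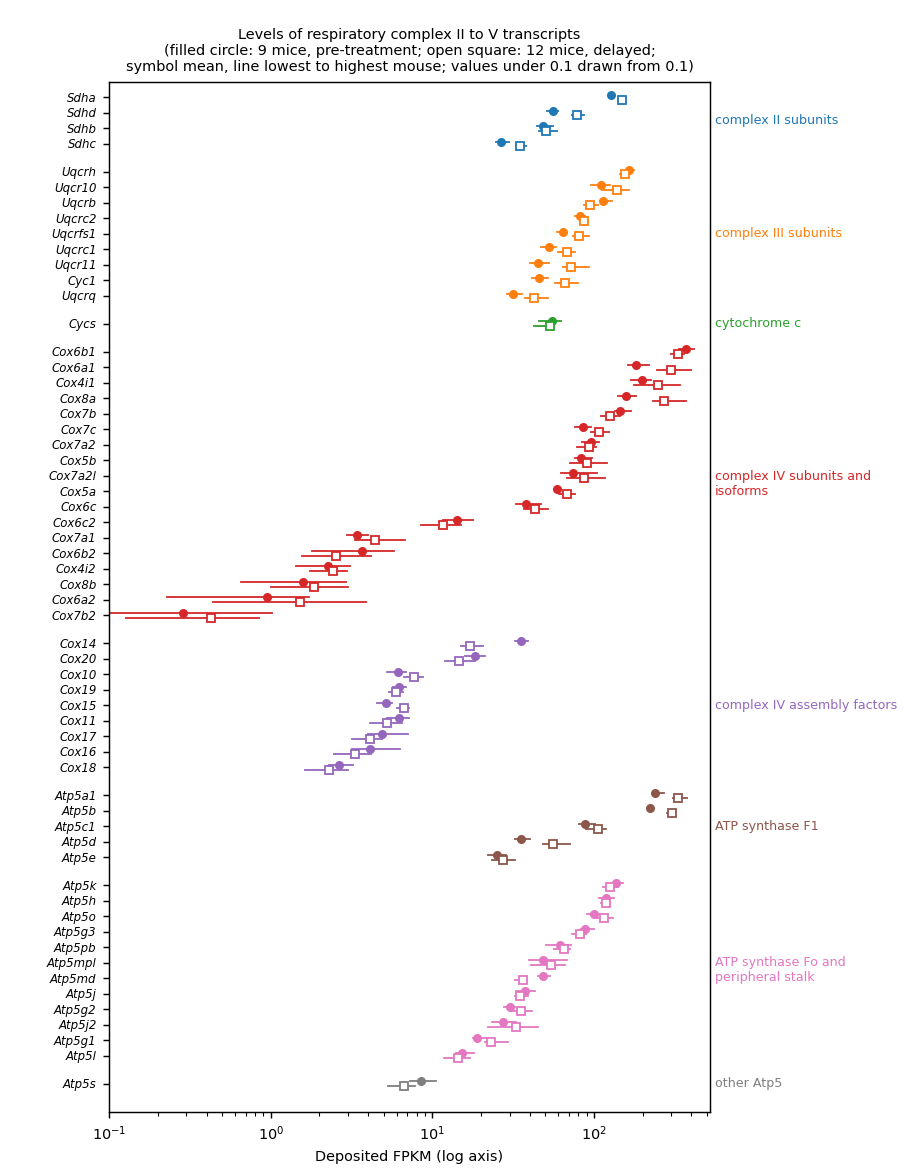
Deposited FPKM of the 59 tested genes on a log axis, grouped by role, with the mean (symbol) and the lowest and highest mouse (line) in the pre-treatment experiment (filled circles, 9 mice) and the delayed experiment (open squares, 12 mice). Cox6b1 and Atp5a1 lie at the top, at 372 and 239 FPKM in the pre-treatment experiment, and the tissue-specific isoform Cox7b2 at the bottom, at 0.288 and 0.427 FPKM.

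Complex IV subunits with tissue-specific isoforms were almost wholly of the widely expressed form in every mouse. By FPKM, the hypoxia- and lung-associated Cox4i2 made 0.669 to 1.68% of the Cox4i1 and Cox4i2 total in pre-treatment mice and 0.694 to 1.41% of it in delayed mice. The heart and muscle isoform Cox6a2 made 0.127 to 1.04% and 0.117 to 1.56% of its pair, and the muscle isoform Cox8b made 0.420 to 1.90% and 0.417 to 0.993% of the pair with Cox8a. Cox7a1, the heart and muscle form of Cox7a, took the largest share of these minor isoforms, at 2.93 to 3.93% and 3.56 to 6.23% of its total with Cox7a2. The testis-associated isoforms Cox6b2 and Cox7b2 made 0.468 to 1.46% and 0 to 0.685% of their pairs in the pre-treatment experiment. The same isoforms made 0.494 to 1.14% and 0.0909 to 0.689% in the delayed experiment. Mean levels of the minor isoforms were 3.43 and 4.40 FPKM for Cox7a1, 3.65 and 2.55 for Cox6b2, 2.27 and 2.43 for Cox4i2, 1.58 and 1.85 for Cox8b, 0.944 and 1.51 for Cox6a2 and 0.288 and 0.427 FPKM for Cox7b2. Skeletal muscle markers were low in all mice, at 1.87 to 33.6 CPM summed over 5 genes.

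The c subunit, of which ATP synthase holds a ring, is made from 3 genes with the same mature protein. By FPKM, Atp5g3 made 64.1% ± 0.782 of their sum (SD, n = 9 mice) in the first experiment and 58.5% ± 1.41 (SD, n = 12 mice) in the delayed experiment. Atp5g2 made 22.0% ± 0.839 and 25.1% ± 0.789, and Atp5g1 made 13.8% ± 0.992 and 16.4% ± 1.03. The 3 genes stood at 87.5 and 81.8 FPKM, at 30.0 and 35.1 and at 18.8 and 22.9 FPKM for Atp5g3, Atp5g2 and Atp5g1. The order of the lower pair rests on the gene length used, since Atp5g1 had more counts than Atp5g2, at 104 against 56.7 CPM in the pre-treatment experiment.

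Spread between mice of 1 group was small for most members. Over the 50 genes with a mean of at least 10 CPM, the within-group coefficient of variation had a median of 6.03% among pre-treatment mice and 7.98% among delayed mice. Cox16 had the highest value in the first, and Cox7a2l in the second, at 23.7%.

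A summary over the members was taken as the median, over genes, of each mouse's log2 deviation from the mean of its experiment, over 58 genes in the pre-treatment experiment, where Cox7b2 had 0 counts in 3 mice and was left out, and over 59 in the delayed experiment. In the pre-treatment experiment it was −0.012, 0.063 and 0.12 in controls, −0.073, −0.031 and −0.029 in MPTP mice, and 0.013, 0.0098 and −0.042 in mice given irisin before MPTP. The 3 MPTP mice thus lay below the 3 controls, control mouse 1 by the narrowest margin. In the delayed experiment it was 0.15, 0.076 and −0.021 in controls, −0.046, −0.10 and 0.070 in irisin mice, −0.0017, −0.015 and −0.022 in MPTP mice, and −0.099, −0.013 and 0.011 in MPTP mice given irisin. There, the groups overlapped, with control mice 1 and 2 at the top. The SD between mice of 1 group was 0.044 and 0.068 on this log2 scale in the 2 experiments.

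**Figure D2:**
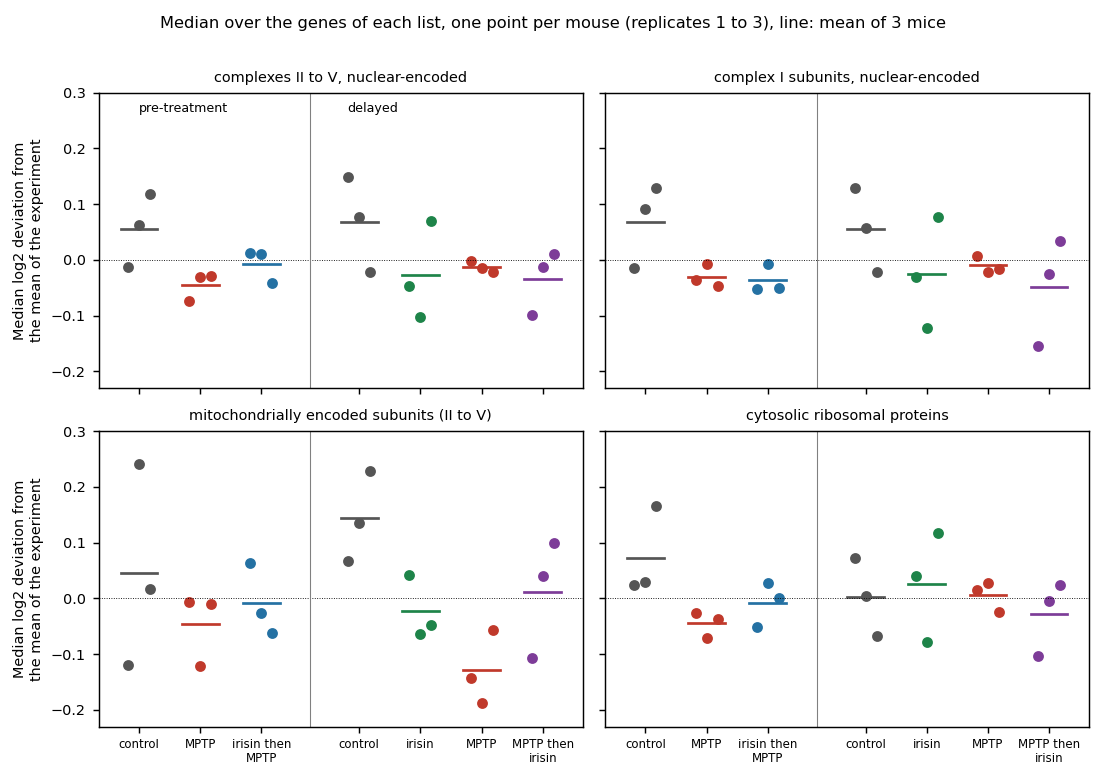
Median log2 deviation from the mean of the experiment, 1 point per mouse and a line at the mean of 3 mice, for the nuclear-encoded members of complexes II to V, nuclear-encoded complex I subunits, mitochondrially encoded subunits and cytosolic ribosomal proteins. In the first panel the MPTP mice of the pre-treatment experiment (−0.073 to −0.029) lie below their controls (−0.012 to 0.12), while the delayed groups overlap.

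MPTP was compared with control first in the pre-treatment experiment, where the tissue was taken after the last MPTP days. Most members were slightly lower after MPTP, and none passed the threshold of adjusted p under 0.05 (edgeR quasi-likelihood test, Benjamini-Hochberg adjustment over 22641 genes). The log2 fold change was negative in 47 of 59 members, or 79.7%, against 50.4% of all genes tested, with a median of −0.10 against −0.0018 over all genes. All 9 complex III genes and all 5 genes of the ATP synthase head and central stalk had negative values, as did 10 of 12 membrane and peripheral stalk genes, 3 of 4 complex II genes, 12 of 18 complex IV subunits and isoforms and 6 of 9 complex IV assembly factors. The 3 MPTP mice lay below the 3 controls for 17 members, against 5.93% of all genes, and above them for 1, Cox17, against 5.71% of all genes. At unadjusted p under 0.05, 10 members were lower and 0 higher, while 2.67% of all genes were lower and 3.36% higher. At adjusted p under 0.05, 0.0221% of all genes passed in either direction.

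The 5 members with the smallest p were Cox6c2, Cox5b, Cox15, Cox7a2 and Sdhb. Cox5b, a zinc-binding subunit on the matrix side of complex IV, held 153, 156 and 171 CPM in controls and 139.9, 147 and 137 CPM in MPTP mice, without overlap (log2 fold change −0.18, SE 0.062, adjusted p = 0.818). Cox15, which completes heme A for complex IV, held 29.1, 32.1 and 30.7 CPM in controls and 26.3, 24.8 and 28.1 CPM in MPTP mice, again without overlap (log2 fold change −0.22, SE 0.079, adjusted p = 0.818). For Sdhb, which carries electrons from the flavin of complex II through iron-sulfur clusters, the controls held 121, 126 and 139 CPM and the MPTP mice 113, 117 and 113 CPM (log2 fold change −0.17, SE 0.065, adjusted p = 0.823). Control mouse 3 was the highest for each of Cox5b and Sdhb, and the MPTP mice differed little among themselves. For Cox7a2, the widely expressed form of its subunit, MPTP mouse 2 at 104 CPM was above control mouse 1, with 102, 113 and 113 CPM in controls and 94.2, 104 and 89.8 CPM in MPTP mice (log2 fold change −0.19, SE 0.073, adjusted p = 0.823). The pseudogene Cox6c2 held 4.13, 4.60 and 4.57 CPM and 3.43, 2.99 and 3.41 CPM (log2 fold change −0.44, SE 0.15, adjusted p = 0.818). Reads from its parent Cox6c could be counted there, and Cox6c itself had a log2 fold change of −0.25 (SE 0.10, adjusted p = 0.823). The other members at unadjusted p under 0.05 were Cox8a, Cox6a1, Atp5h and Atp5s, with log2 fold changes of −0.18, −0.18, −0.14 and −0.24.

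The median size of the log2 fold change over members, whatever its sign, was 0.12, with a median SE of 0.079 on the same scale. An approximate 95% interval, taken from the SE by the normal distribution, lay within 0.5 of 0 for 49 of the 59 members. With 3 mice per group such an interval is narrower than the quasi-likelihood test implies. Larger differences were therefore not excluded for those genes. Other gene groups had values of like sign and size. Of 39 complex I subunits, 36 had negative log2 fold changes, with a median of −0.085, and so had 72 of 81 cytosolic ribosomal protein genes, with a median of −0.13, a list added after the data were seen. All 6 mitochondrially encoded subunits of complexes III, IV and V were negative as well, with a median of −0.11. All 5 choroid plexus markers were higher at unadjusted p under 0.05, through MPTP mouse 2, and without that mouse 49 of 59 members were negative and 7 were lower at unadjusted p under 0.05. The 6 dopaminergic markers were lower in 2 cases and higher in 4. The count of members lower at unadjusted p under 0.05 was 20, 6 and 3 without control mouse 1, 2 or 3, and 3 and 4 without MPTP mouse 1 or 3. At the same threshold, 1 member was higher without control mouse 2, MPTP mouse 1 or MPTP mouse 2. The median was −0.15 without control mouse 1.

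MPTP was then compared with control in the delayed experiment, where 5 days of ddH2O followed the MPTP days, in other mice. No member passed adjusted p under 0.05 over 21922 genes, and 0.132% of all genes did. The share of negative log2 fold changes was again 79.7%, 47 of 59 members against 50.3% of all genes, with a median of −0.094. The 3 MPTP mice lay below the 3 controls for 7 members, against 7.94% of all genes, and above them for 0 members against 8.24%. At unadjusted p under 0.05, 4 members were lower and 0 higher, with 4.01% and 4.32% of all genes in the same directions. The complex IV subunits and isoforms were negative in 17 of 18 cases with a median of −0.16. Complex III was negative in 8 of 9 and the ATP synthase head and central stalk in 2 of 5, where Atp5a1 and Atp5b had log2 fold changes of 0.032 and 0.051.

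Cox11 had the smallest p. It held 9.50, 9.52 and 9.69 CPM in controls and 7.42, 6.75 and 6.59 CPM in MPTP mice, the controls being nearly identical and all MPTP mice lower (log2 fold change −0.47, SE 0.14, adjusted p = 0.393). Cox11, at chr11:90638173-90644931 on the plus strand of GRCm38, overlaps Tom1l1 on the other strand, and whether the counting used strand is not given in the sources used here. Cox8a, a small membrane subunit of complex IV, held 261, 210.2 and 199 CPM and 185, 182 and 176 CPM (log2 fold change −0.31, SE 0.10, adjusted p = 0.412). Atp5d, the delta subunit of the central stalk, held 156, 133 and 129 CPM and 121, 117 and 119 CPM (log2 fold change −0.23, SE 0.077, adjusted p = 0.436). For both genes the MPTP mice were close together and control mouse 1 was the highest of the experiment. Sdhc, a membrane anchor of complex II, held 141, 137 and 128 CPM and 119, 127 and 124 CPM (log2 fold change −0.13, SE 0.051, adjusted p = 0.528). Cox7c, another small complex IV subunit, held 159, 149 and 136 CPM and 129, 132 and 133 CPM (log2 fold change −0.17, SE 0.077, adjusted p = 0.598). The groups did not overlap for any of these 5 genes.

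Without control mouse 1, the median over members was −0.057 and 43 of 59 were negative, and without control mouse 3, the control with the lowest summary over members, it was −0.14 with 14 members lower at unadjusted p under 0.05. Without MPTP mouse 2, that count was 8. Control mice 1 and 2 also had high choroid plexus markers, at 1501 and 1347 CPM, against 235 CPM in control mouse 3. MPTP mouse 3 had a like level of 1538 CPM while its summary over members was −0.022, and the part of choroid plexus tissue in the result was not tested. The 6 dopaminergic markers were all lower in MPTP than in control mice with a median log2 fold change of −0.63, 0 of them past adjusted p under 0.05 and 3 at unadjusted p under 0.05. Of the 6 general neuron markers, 5 were lower, with a median of −0.11, and their summed level was 4916 to 5163 CPM in MPTP mice against 5323 to 5773 CPM in controls, without overlap. The 5 skeletal muscle markers were all higher, with a median of 1.48. The part of these cell types in the result was not tested. Complex I subunits were negative in 30 of 39 cases with a median of −0.083, and mitochondrial ribosomal protein genes in 58 of 78 with a median of −0.088, whereas cytosolic ribosomal protein genes were negative in 44 of 82 with a median of −0.0036.

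The MPTP comparisons of both experiments used separate mice. Of the 59 members, 38 were lower after MPTP in both, or 64.4%, against 28.2% of the 21153 genes tested in both, and 3 were higher in both. A large share lower in both already follows from the shares lower in each comparison, so it does not show gene-by-gene agreement. Cox8a had log2 fold changes of −0.18 and −0.31, Atp5d of −0.16 and −0.23, and Atp5h of −0.14 and −0.089. Cox17, which was higher after MPTP in the first experiment, had a log2 fold change of 0.30 (SE 0.15, adjusted p = 0.838) there and of −0.25 (SE 0.11, adjusted p = 0.606) in the second. In the first experiment Cox11 held 10.6, 8.69 and 9.89 CPM in controls and 9.02, 9.04 and 9.19 CPM in MPTP mice (log2 fold change −0.10, SE 0.10, adjusted p = 0.940).

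**Figure D3:**
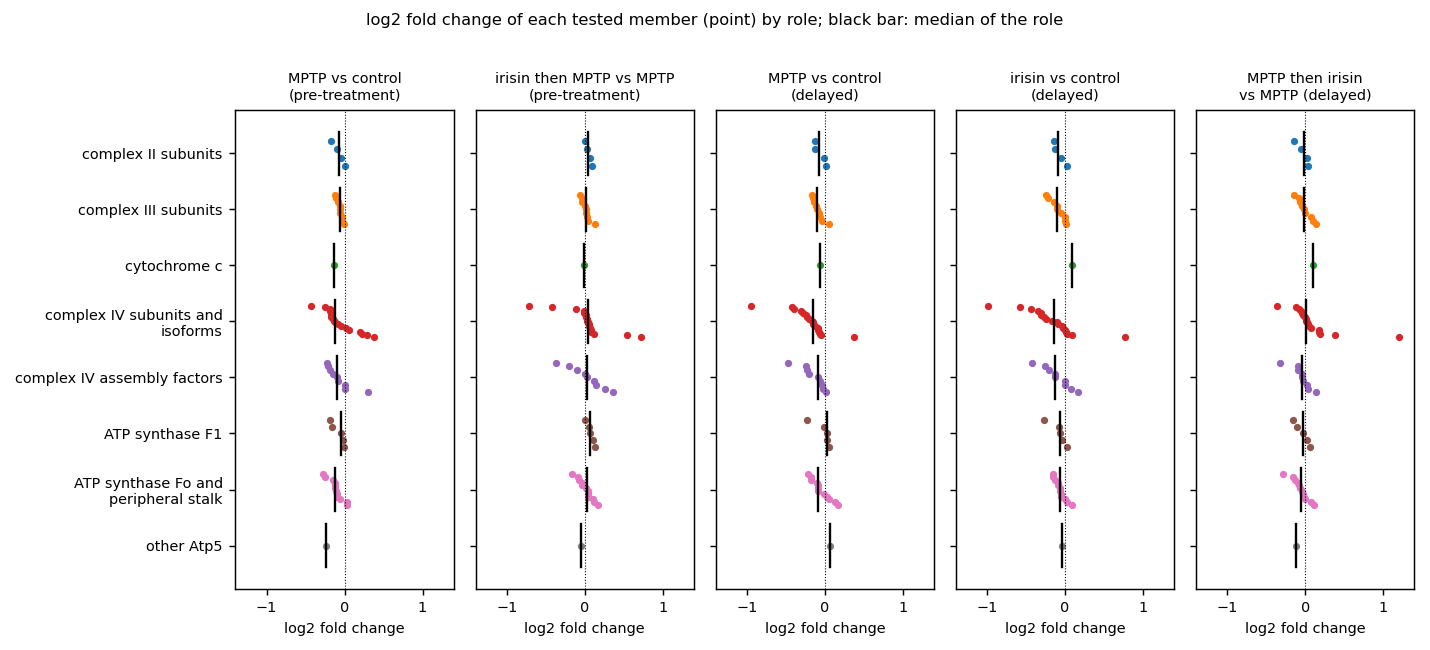
Log2 fold change of each tested member (points) in the 5 comparisons of 2 groups, by role, with the median of each role as a black bar. Most points of both MPTP comparisons and of irisin alone lie left of 0 (47, 47 and 46 of 59 members), while those of irisin before MPTP lie mostly right of it (41 of 59), and no point passed adjusted p under 0.05.

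The mitochondrially encoded partners of these subunits had a median further below 0 in the delayed experiment, and the difference from the nuclear members was not tested. All 6 were lower after MPTP, with a median log2 fold change of −0.26, and 5 of 6 were at unadjusted p under 0.05. mt-Cytb, the cytochrome b core of complex III, passed the threshold (log2 fold change −0.35, SE 0.057, adjusted p = 0.0467). The ratio of the summed CPM of the 9 nuclear complex III genes to mt-Cytb was 0.147 ± 0.0203 in controls and 0.179 ± 0.0066 in MPTP mice (SD, n = 3 mice each). The values ran from 0.127 to 0.168 and from 0.171 to 0.183, without overlap, and 3 mice against 3 cannot give an exact permutation p below 0.1. The lower mt-Cytb of these mice is the denominator, so the ratio is not a separate result. Among the pre-treatment mice this ratio was 0.113 ± 0.0128 in controls and 0.117 ± 0.0040 in MPTP mice, which overlapped. For complex IV, the ratio in the delayed experiment was 0.0573 ± 0.0040 in controls and 0.0598 ± 0.0029 in MPTP mice, also overlapping. For ATP synthase it was 1.78 ± 0.273 in controls and 2.09 ± 0.186 in MPTP mice of that experiment, overlapping as well.

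Irisin before MPTP was compared with MPTP alone, which served as the treated group of the first MPTP comparison as well, so a high or low value in those 3 mice enters both. No member passed adjusted p under 0.05, and 0.0707% of all genes did. The log2 fold change was positive in 41 of 59 members, with a median of 0.028, and negative in 30.5% of members against 49.3% of all genes. All 5 genes of the ATP synthase head and central stalk and all 4 of complex II were positive, with medians of 0.067 and 0.047. The irisin mice lay above the MPTP mice for 9 members and below them for 0, against 7.14% and 7.08% of all genes. These 9 were Atp5a1, Atp5b, Atp5g2, Atp5h, Sdhb, Cyc1, Cox11, Cox15 and Cox19. At unadjusted p under 0.05, 1 member was higher and 2 were lower, against 2.93% and 3.29% of all genes.

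Cox11 had the smallest p, with 9.02, 9.04 and 9.19 CPM in MPTP mice and 11.1, 10.3 and 11.4 CPM in mice given irisin first (log2 fold change 0.27, SE 0.10, adjusted p = 0.741). Cyc1, which passes electrons to cytochrome c, held 101, 109 and 112 CPM and 116, 125 and 113 CPM, the groups just separated (log2 fold change 0.14, SE 0.067, adjusted p = 0.855). The other 3 with small p were lower in irisin mice. Cox17 held 32.4, 32.5 and 46.4 CPM and 26.3, 32.5 and 27.3 CPM, with MPTP mouse 3 far above the rest and an overlap at 32.5 CPM (log2 fold change −0.37, SE 0.15, adjusted p = 0.760). Cox6b2 held 5.15, 7.15 and 4.49 CPM and 3.07, 4.83 and 2.28 CPM (log2 fold change −0.72, SE 0.31, adjusted p = 0.799). Cox10, which makes heme O, the precursor of heme A, held 22.3, 20.0 and 23.3 CPM and 18.7, 20.5 and 17.9 CPM (log2 fold change −0.20, SE 0.10, adjusted p = 0.840). Both of these pairs of groups overlapped. Complex I subunits were positive in 22 of 39 cases with a median of 0.0090, and the difference between the lists was not tested. Cytosolic ribosomal protein genes were negative in 21 of 81 cases. Markers of other cell types differed in this comparison as well. The 6 dopaminergic markers were all lower in the irisin mice, with a median of −0.70, and so were the 5 red blood cell markers, with a median of −0.93, and the 5 choroid plexus markers, with a median of −2.35. Their part in the values of the members was not tested.

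Irisin alone was compared with control in the delayed experiment, with the same 3 control mice as the MPTP comparison there. The members again tended to negative values and none passed adjusted p under 0.05, which 0.109% of all genes did. The log2 fold change was negative in 46 of 59 members, against 50.5% of all genes, with a median of −0.083. At unadjusted p under 0.05, 10 members were lower and 0 higher, against 4.44% and 4.53% of all genes. The groups did not overlap for 4 members, Atp5d, Cox15, Cox6b2 and Cox8a, all lower in irisin mice, against 7.68% of all genes, and 0 members were above against 7.43%. The count of members at unadjusted p under 0.05 was 5, 6 and 17 without control mouse 1, 2 or 3, and 4, 3 and 14 without irisin mouse 1, 2 or 3. Leaving out 1 mouse of the other groups, which enter only through the shared estimate of spread, gave 5 to 8. The median over members was −0.030 without control mouse 1, −0.040 without irisin mouse 2, −0.13 without control mouse 3 and −0.13 without irisin mouse 3. The 5 choroid plexus markers were all lower in the irisin mice, with a median of −1.94, and the 5 skeletal muscle markers were all higher, with a median of 1.71. Of the 6 general neuron markers, 5 were lower, with a median of −0.13, and their summed level was 4979 to 5204 CPM in irisin mice and 5323 to 5773 CPM in controls, without overlap. The part of these cell types in the result was not tested. Complex I subunits were negative in 29 of 39 cases with a median of −0.093.

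Cox6b2 had the smallest p of any member in any comparison. It held 5.32, 4.31 and 3.08 CPM in controls, from 257, 225 and 168 reads, and 2.11, 1.99 and 2.29 CPM in irisin mice, from 111, 119 and 131 reads. The 3 irisin mice were close together and below every other mouse of the experiment (log2 fold change −0.99, SE 0.23, adjusted p = 0.286). DESeq2 on the same genes called it at adjusted p = 0.0245, and over all 22 alternatives its adjusted p ran from 0.0245 to 0.641. Cox6b2 is the minor partner of Cox6b1 described above. Cox8a held 178, 159.7 and 188 CPM in irisin mice against 261, 210.2 and 199 CPM in controls (log2 fold change −0.35, SE 0.10, adjusted p = 0.394), and Atp5d 109, 115 and 123 CPM against 156, 133 and 129 CPM (log2 fold change −0.27, SE 0.077, adjusted p = 0.411). For Sdhc, irisin mouse 3 at 128 CPM reached the lowest control, with 121, 121 and 128 CPM in irisin mice (log2 fold change −0.13, SE 0.051, adjusted p = 0.519). Uqcrq, a small complex III subunit next to cytochrome b, held 108, 92.9 and 92.0 CPM in controls and 82.2, 76.1 and 93.2 CPM in irisin mice, with irisin mouse 3 above control mouse 3 (log2 fold change −0.22, SE 0.090, adjusted p = 0.531). The rest at unadjusted p under 0.05 were Sdhd, Uqcr11, Cox14, Cox18 and Cox7c, with log2 fold changes of −0.14, −0.25, −0.21, −0.43 and −0.17.

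**Figure D4:**
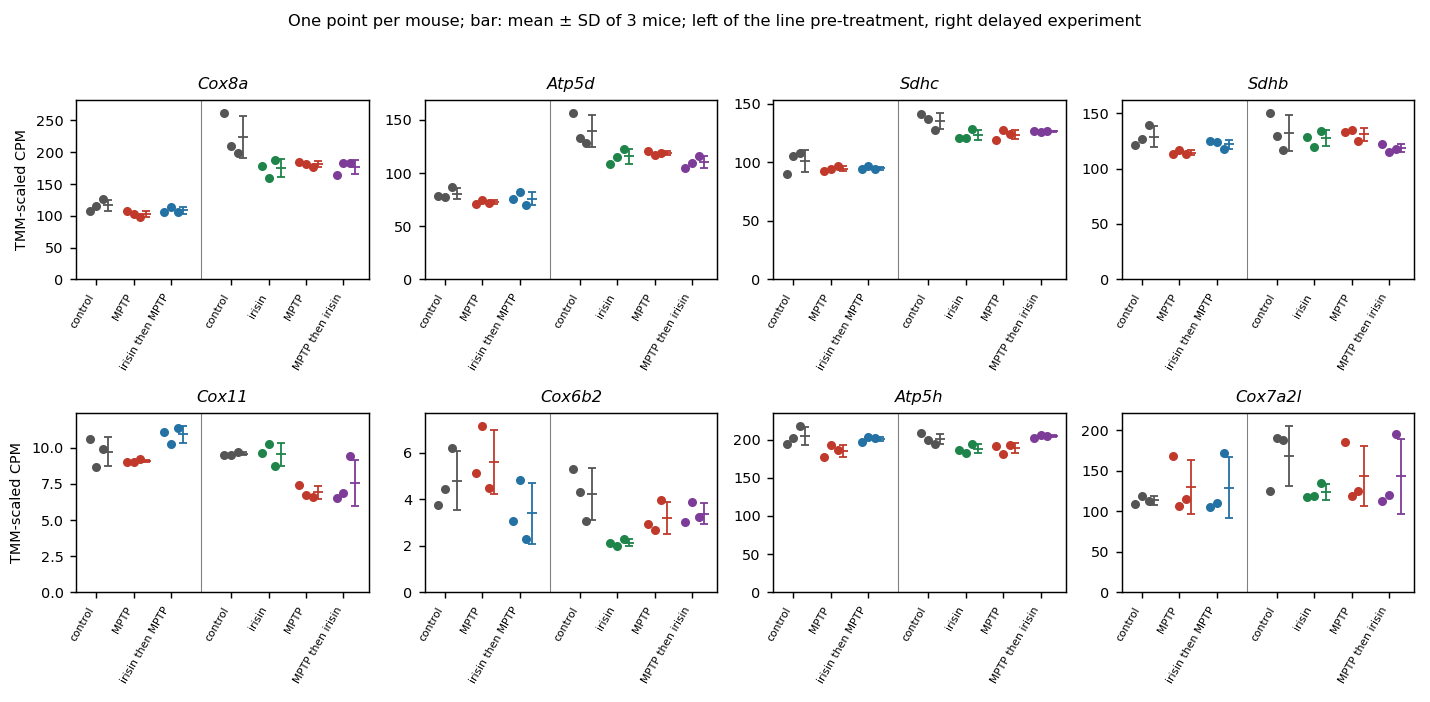
TMM-scaled CPM of 8 members in every mouse, with the mean ± SD of 3 mice beside the points. Within the delayed experiment, Cox8a and Atp5d are highest in the 3 controls (199 to 261 and 129 to 156 CPM), Cox6b2 is lowest in the 3 irisin mice (1.99 to 2.29 CPM), and Cox7a2l falls into a lower (112 to 135 CPM) and an upper (185 to 196 CPM) range.

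Irisin given after MPTP was compared with MPTP followed by ddH2O, the 3 mice that were also set against control. Members were near 0 on both sides, with 25 of 59 positive and 34 negative and a median log2 fold change of −0.030, and 50.1% of all genes were negative. None passed adjusted p under 0.05, and 1 gene of all 21922, or 0.00456%, did. At unadjusted p under 0.05, 1 member was higher and 0 were lower, against 2.06% and 1.85% of all genes. The groups did not overlap for 7 members, 3 of them higher and 4 lower, against 5.35% and 5.38% of all genes. Atp5h, the d subunit of the peripheral stalk that holds the ATP synthase head in place, held 192, 181 and 193 CPM in MPTP mice and 202, 206 and 205 CPM in those given irisin, where the mice were close together (log2 fold change 0.12, SE 0.047, adjusted p = 0.9995). Sdhb went the other way, with 133, 135 and 125 CPM and 122, 115 and 118 CPM (log2 fold change −0.14, SE 0.083, adjusted p = 0.9995). Cox16 and Uqcrb, a small complex III subunit, overlapped between the groups. Cox16 held 12.8, 14.4 and 16.6 CPM and 10.4, 13.7 and 10.8 CPM (log2 fold change −0.32, SE 0.16, adjusted p = 0.9995), and Uqcrb 84.4, 84.5 and 92.8 CPM and 90.0, 94.8 and 104 CPM (log2 fold change 0.14, SE 0.079, adjusted p = 0.9995). Cox7b2 rested on 13, 12 and 6 reads in MPTP mice and 14, 27 and 17 reads in those given irisin, and its log2 fold change of 1.21 (SE 0.69, adjusted p = 0.9995) is correspondingly uncertain.

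Compared with the MPTP mice, all 6 mitochondrially encoded subunits were higher in MPTP mice given irisin afterwards, with a median log2 fold change of 0.12, 0 of them past adjusted p under 0.05 and 1 at unadjusted p under 0.05. Without MPTP-irisin mouse 1, which had the lowest summary over members, the median over the nuclear members was 0.014 and 26 of 59 were negative, so its sign rests on that mouse. Leaving out any other mouse gave medians of −0.047 to −0.016. The 5 choroid plexus and 5 red blood cell markers were all higher in the mice given irisin, with medians of 0.40 and 0.48, and the 5 skeletal muscle markers were all lower, with a median of −0.57. Their part in the result was not tested.

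Whether irisin acted differently with and without MPTP was tested by the interaction over the 12 mice of the delayed experiment. No member passed adjusted p under 0.05, and 0.0411% of all genes did. The difference was positive in 40 of 59 members and negative in 19, where 49.5% of all genes were negative, with a median of 0.090. For most members, the log2 fold change for irisin was thus higher after MPTP than without MPTP. The interaction compares irisin effects, not levels after and without MPTP. At unadjusted p under 0.05, 4 members had a positive and 0 a negative difference, against 2.81% and 2.76% of all genes. The smallest p belonged to Cox6b2, Atp5h, Cox8a, Sdhc and Cox16. Their differences of log2 fold changes were 1.07 (SE 0.32, adjusted p = 0.811), 0.21 (SE 0.066, adjusted p = 0.881), 0.32 (SE 0.14, adjusted p = 0.893), 0.17 (SE 0.073, adjusted p = 0.893) and −0.48 (SE 0.23, adjusted p = 0.899). Without control mouse 1, the median over members was 0.019, without irisin mouse 2 it was 0.051 and without MPTP-irisin mouse 3 it was 0.058, and over all single mice left out the count at unadjusted p under 0.05 ran from 2 to 7. The 6 mitochondrially encoded subunits were all positive, with a median of 0.24 and 5 at unadjusted p under 0.05. Of the markers of other tissue, all 5 for choroid plexus were positive, with a median of 2.34, all 5 for skeletal muscle were negative, with a median of −2.15, and 5 of 6 for neurons were positive, with a median of 0.11. Their part in the result was not tested.

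Irisin before MPTP and irisin after MPTP were set against each other in a joint fit of the 21 mice. The experiments also differed in the interval between the last MPTP injection and dissection. The order of irisin and MPTP cannot be told apart from that interval or from other differences between the experiments. No member passed adjusted p under 0.05 over 23364 genes, and 0.077% of all genes did. The difference was positive in 42 of 59 members, the log2 fold change for irisin being the higher in the pre-treatment experiment, and negative in 17. Its median was 0.055, and 48.7% of all genes were negative. At unadjusted p under 0.05, 2 members had a positive and 0 a negative difference, against 2.77% and 2.91% of all genes. The smallest p belonged to Cox16, Sdhb, Cox6b2, Atp5j2 and Cox15, with differences of 0.69 (SE 0.29, adjusted p = 0.816), 0.24 (SE 0.11, adjusted p = 0.842), −0.79 (SE 0.39, adjusted p = 0.888), 0.45 (SE 0.24, adjusted p = 0.897) and 0.19 (SE 0.10, adjusted p = 0.899). Atp5j2, the f subunit of the membrane part of ATP synthase, held 91.8, 94.7 and 88.3 CPM in the MPTP mice and 124, 90.3 and 94.7 CPM in those given irisin first, where mouse 1 alone was high. In the delayed experiment it held 139, 129 and 95.4 CPM in MPTP mice and 81.6, 123 and 95.9 CPM in those given irisin afterwards. For Cox16, irisin mouse 2 of the pre-treatment experiment at 26.7 CPM stood above 14.8, 13.4 and 17.2 CPM in MPTP mice and above 14.2 and 17.3 CPM in its own group. Without MPTP-irisin mouse 1 of the delayed experiment the median over members was 0.0070, with 27 of 59 negative. It was 0.036 without MPTP mouse 1 of that experiment and 0.085 without irisin mouse 1 of the pre-treatment experiment. All 5 choroid plexus and all 5 red blood cell markers were negative in this comparison, with medians of −2.68 and −1.41, as were 5 of 6 dopaminergic markers, with a median of −0.56. Their part in the result was not tested.

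Among the other genes of the pathway, mt-Cytb in the delayed MPTP comparison was the 1 call at adjusted p under 0.05 by edgeR. Of the 39 complex I subunits tested, 0 passed adjusted p under 0.05 in any of the 7 comparisons, the nearest being Ndufb5 in irisin before MPTP against MPTP (log2 fold change −0.49, SE 0.072, adjusted p = 0.0698). Of the 27 assembly factors outside the rule and the 8 transcriptional regulators of mitochondrial genes that were tested, 0 passed. In the pre-treatment MPTP comparison the assembly factors were negative in 16 of 27 cases with a median of −0.057 and the regulators in 4 of 8 with a median of 0.037.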

How the data were processed

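RNA of 21 mice was sequenced, and per the authors' methods reads were assigned to genes with featureCounts. The submitters' processing notes also name HISAT, StringTie and edgeR, without versions, and the build mm9, although the coordinates in the deposited tables match GRCm38 for 91.9% and 86.5% of the genes of the 2 tables. The deposited values are raw counts and FPKM per gene, in 1 table for each experiment. The authors' comparison columns were not used.

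Counts were filtered (filterByExpr, minimum count 10), scaled by TMM and tested by the quasi-likelihood test of edgeR 4.0.16 in R 4.3.3, with all groups of an experiment in the fit and Benjamini-Hochberg adjustment over all genes tested. CPM values are TMM-scaled. FPKM was used for levels between genes and, with limma 3.58.1, as an alternative. DESeq2 1.42.0, other scalings and filters, and leaving out each mouse were the other alternatives. Scripts were tested on simulated data. The 5 members with the smallest p in each comparison are given in full. The members and gene lists were chosen with earlier results of these data known, and the ribosomal protein lists after seeing these values. Same-numbered mice did not deviate together, with correlations of −0.10 to 0.17 and −0.088 to 0.053, so numbers were not taken as pairs.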

Additional observations from a re-analysis of the deposited data

How the results depend on the processing

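No member passed adjusted p under 0.05 in any comparison under any alternative, except that DESeq2 called 1 member, Cox6b2, in irisin alone against control (log2 fold change −0.98, adjusted p = 0.0245). Of 779 values of the named members under alternatives, 778 kept their direction and side of the threshold, 1 became significant and 0 reversed. The named members were those with the smallest p in each comparison of the same data, and none passed the threshold in the main fit. That choice favours an unchanged direction and side, so these counts are not a test of robustness. Leaving out each mouse moved the median log2 fold change of the members between −0.152 and −0.077 for MPTP in the pre-treatment experiment, and between 0.019 and 0.129 for the interaction of irisin with MPTP. With the replicate number as a block, 0 members passed and the median was −0.10 in the pre-treatment MPTP comparison, and the block changed no call. Counts at unadjusted p under 0.05, an alternative chosen after seeing the data, were less stable. In the pre-treatment experiment, members lower after MPTP numbered 6 to 12 under the other settings and 3 to 20 with 1 mouse left out. Restricting the fit to the groups compared was not run for the interaction, which uses all 4 groups. Groups of 3 mice, and a median SE of 0.079 to 0.13 on the log2 scale, limit what could be detected. The cause of these movements was not tested.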

Other observations

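Cox7a2l, of the Cox7a family, lay in a lower and an upper range within each experiment. Among the 9 pre-treatment mice its level lay between 105 and 119 CPM in 7 and between 168 and 172 CPM in 2. Among the 12 delayed mice it lay between 112 and 135 CPM in 8 and between 185 and 196 CPM in 4. In the pre-treatment experiment, control mice held 109, 119 and 112 CPM, MPTP mice 168, 107 and 115 CPM and mice given irisin before MPTP 105, 110.1 and 172 CPM. In the delayed experiment the values were 125, 191 and 188 CPM in controls, 118, 119 and 135 CPM in irisin mice, 185, 119 and 125 CPM in MPTP mice and 112, 121 and 196 CPM in MPTP mice given irisin. The upper values were spread over 5 of the 7 groups. The gene was chosen for this description after its values were seen, and no test was made.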
